A study of Mus musculus with 12 samples.

Results

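The fatty acid elongases and desaturases are the enzymes of the endoplasmic reticulum that lengthen fatty acids and put double bonds into them. The genes described here are the elongases Elovl1, Elovl2, Elovl3, Elovl5 and Elovl6 and the desaturases Fads1, Fads2, Scd1 and Scd2. They were chosen by gene symbol from the deposited table of read counts, taking the first row of each gene, and all 9 were found among its 15140 genes. The liver samples came from male mice that received a high-fat diet (60 kcal% fat) for 3 months from 7 to 8 weeks of age. In the knockout group (KO, n = 6) prohibitin 1, a scaffold protein of the inner mitochondrial membrane, was deleted in adipocytes (genotype Phb1adipo-/-), and the control animals were wild type (WT, n = 6). Both groups were on this diet, and no group on another diet is analysed here. For the Cre line, the background strain and any pooling of animals, nothing is given in the sources used here. The labels do not tie a library to an animal or a preparation day, so the p-values measure the spread between the 12 libraries, which may in part be technical.

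Fatty acids enter elongation as acyl-CoA. An elongase joins malonyl-CoA to the acyl chain, and a reductase, a dehydratase and a further reductase complete the cycle. The elongases differ in the chains they accept: in mice Elovl6 extends palmitate to stearate, Elovl1 and Elovl3 make saturated and monounsaturated very long chains, and Elovl5 and Elovl2 extend polyunsaturated chains, Elovl2 acting on the longer of them. Scd1 and Scd2 convert stearate and palmitate to monounsaturated acids such as oleate, whereas Fads2 and Fads1 add the double bonds with which linoleic and alpha-linolenic acid become arachidonic acid and the omega-3 acids. In mouse liver Scd1 and Elovl6 are known targets of SREBP-1c and of dietary carbohydrate, and Elovl3 is known for a daily rhythm and for higher levels in males.

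Histidines hold the catalytic iron of the desaturases and lie in the active site of the elongases, and all 9 genes encode a box made of a histidine codon, any pair of codons and a pair of adjacent histidine codons. It is shown because the 9 genes share this pattern of codons, and the 2 elongases that rose can be compared in it with the others. The boxes were found by the pattern alone, so those of different families need not be matching sites. The stretches below are coding sequence of GENCODE M21 (GRCm38), 39 bases each, written 5′ to 3′ on the gene's strand. The box of 15 bases is in capitals, and where a gene holds more than 1 such box the last is printed.
Elovl1, exon 6, chr4:118431442-118431480, plus strand: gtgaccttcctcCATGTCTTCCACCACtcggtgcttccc
Elovl2, exon 5, chr13:41189989-41190027, minus strand: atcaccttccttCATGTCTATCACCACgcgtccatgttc
Elovl3, exon 4, chr19:46134410-46134448, plus strand: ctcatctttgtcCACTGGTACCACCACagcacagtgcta
Elovl5, exon 5, chr9:77976838-77976876, plus strand: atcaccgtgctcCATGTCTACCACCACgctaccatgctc
Elovl6, exon 5, chr3:129633095-129633133, plus strand: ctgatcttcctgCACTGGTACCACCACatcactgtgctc
Fads1, exon 5, chr19:10186773-10186811, plus strand: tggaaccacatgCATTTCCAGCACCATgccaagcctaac
Fads2, exon 5, chr19:10082634-10082672, minus strand: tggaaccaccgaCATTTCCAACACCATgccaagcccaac
Scd1, joined across exons 5 and 6, chr19:44398081-44400142, minus strand: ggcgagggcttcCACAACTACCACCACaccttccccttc
Scd2, joined across exons 5 and 6, chr19:44301444-44303038, plus strand: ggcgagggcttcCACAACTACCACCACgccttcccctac

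The boxes of Elovl3 and Elovl6, both elongases of saturated chains, were identical (0 of 15 bases differed), and those of Elovl2 and Elovl5, the polyunsaturated elongases, differed at 1 base. Elovl1 also elongates saturated chains. Its box differed from that of Elovl5 at 1 base and from those of Elovl3 and Elovl6 at 5 bases each. Between Elovl3 and Elovl5, the 2 genes that rose in KO livers, 4 bases of the box differed. Fads1 and Fads2 differed at 1 base of the box, and Scd1 and Scd2 at 0. Over the whole coding sequence the 10 pairs of elongases shared 59.4% to 66.9% of aligned bases, with a longest identical run of 11 to 23 bases. Fads1 and Fads2 shared 67.8%, with a longest run of 17 bases. Scd1 and Scd2 shared 90.4% with an identical run of 147 bases, and Scd1 and Scd3 shared 91.5% with a run of 185 bases. The sources used here do not give the treatment of reads that match more than 1 gene, so the low counts of Scd2 and Scd3 are uncertain next to the abundant Scd1. The genes are spread over chromosomes 3, 4, 9, 13 and 19, and 5 of the 9 lie on chromosome 19, where Fads2 and Fads1 are separated by 81.1 kb and Scd2 and Scd1 by 87.6 kb.

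Total counts ran from 34121087 to 37973022 per KO library and from 30348123 to 40828767 per WT library. The hepatocyte markers listed for a check of the tissue, 7 of 8 with a row, summed to 81713 CPM (reads scaled to library size) in KO livers (range 70027 to 94473) and 82271 CPM in WT livers (67542 to 97367). Phb, the gene of prohibitin 1, averaged 94.2 CPM in KO and 85.2 CPM in WT livers (log2 fold change 0.15 ± 0.05 SE; edgeR adjusted p = 0.144). With a deletion aimed at fat cells, this value is no check of the genotype labels.

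Each gene was read from a fit across all 15000 genes that passed a filter on low counts, and all 9 passed it. A gene is said to have risen or fallen when its Benjamini-Hochberg adjusted p over those genes was under 0.05 in edgeR's quasi-likelihood test. A log2 fold change is of KO over WT. In KO livers 2 of the 9 genes, both elongases, rose and 0 fell. Over all genes tested 1.15% rose and 1.49% fell. In edgeR 3184 of the 15000 genes had an unadjusted p under 0.05. DESeq2 called 1214 of 15128 genes and limma-voom 377. Counts in the lists below are to be read beside these. Every KO library lay above every WT library for 1 of the 9 genes, against 1.29% of all genes, and below every WT library for 0, against 1.24%. The fitted log2 fold change was positive for 9 of 9 genes (8 with limma-voom, where Scd1 was negative), against 50.6% of all genes, and its median was 0.38, against 0.00 over all genes. These counts are a description, since the genes were chosen with earlier results of these data known.

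**Figure D1:**
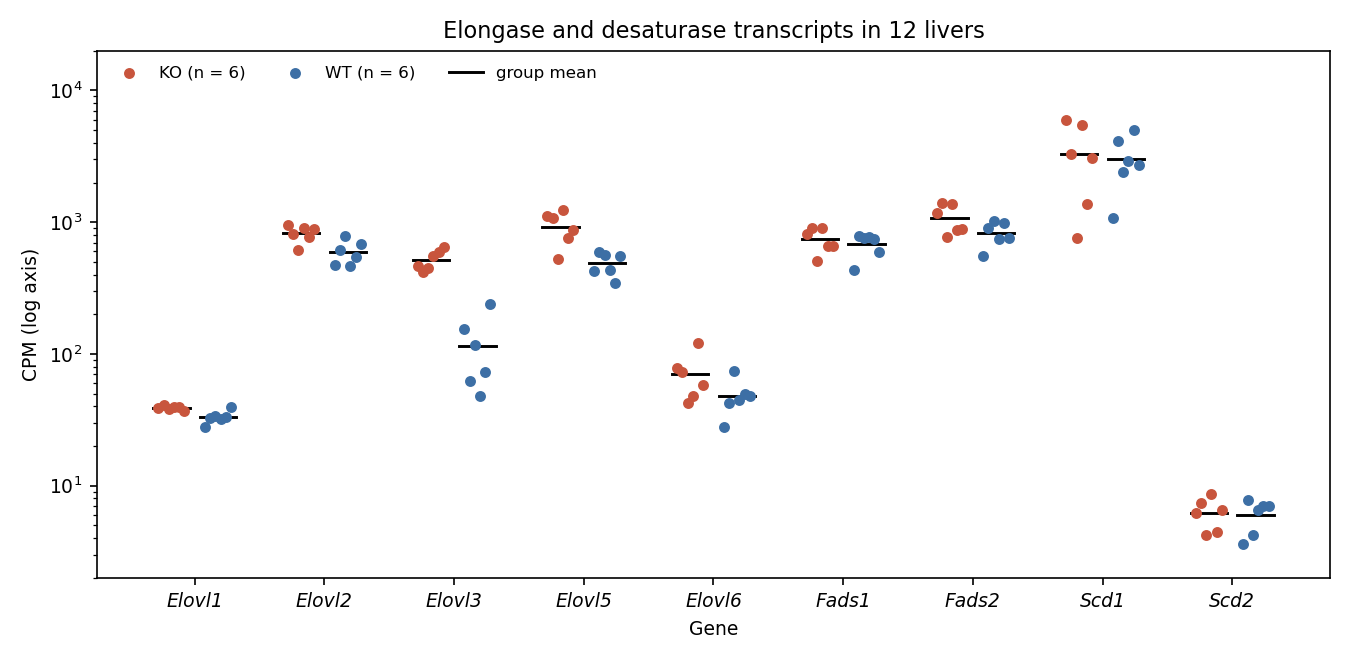
CPM of the 5 elongases and 4 desaturases on a log axis, with a point for each of the 6 KO (left, red) and 6 WT (right, blue) libraries and a bar at the group mean. The KO and WT points are fully separate for Elovl3 alone, between 417 and 644 CPM in KO and between 48.0 and 238 CPM in WT.

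Elovl3, whose enzyme makes saturated and monounsaturated very long chains, showed the largest change of the 9 (ENSMUSG00000038754, chromosome 19, 46131897 to 46135694, plus strand, GRCm38). KO libraries 1 to 6 held 462, 417, 453, 549.6, 595 and 644 CPM, against 154, 62.5, 117, 48.0, 73.5 and 238 CPM for WT libraries 1 to 6. Every KO library lay above every WT library. The means were 520.2 ± 90.0 CPM in KO and 115 ± 71.6 CPM in WT (SD, n = 6 per genotype). Elovl3 rose 4.51-fold (95% confidence interval 2.63 to 7.71; log2 2.17 ± 0.36 SE; edgeR adjusted p = 0.0176). An exact two-sided permutation test of its log2 CPM gave p = 0.00216, unadjusted, the smallest that 6 against 6 allows. The WT livers differed among themselves by 4.96-fold between lowest and highest, against 1.54-fold within KO.

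The annotated 3′ end of Elovl3 overlaps that of Pitx3, a homeobox transcription factor gene on the opposite strand, over 10 bases (chromosome 19, 46135685 to 46135694). Pitx3 also rose, to 5.85 CPM in KO livers, against 0.773 CPM in WT livers (log2 2.95 ± 0.47 SE; edgeR adjusted p = 0.0154). No source used here gives the strand setting of the counting, so reads from the ends of the pair cannot be told apart. The highest Pitx3 value of any library was 9.41 CPM, far under the lowest Elovl3 value of 48.0 CPM. The next tested genes on either side did not pass: the log2 fold change was 0.38 ± 0.14 SE for Nolc1 (edgeR adjusted p = 0.146) and 0.17 ± 0.09 SE for Gbf1 (adjusted p = 0.282).

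Elovl5, the elongase of polyunsaturated chains, also rose (ENSMUSG00000032349, chromosome 9, 77917364 to 77984519, plus strand). KO libraries 1 to 6 held 1105, 1072, 526, 1232, 756 and 873 CPM, and WT libraries 1 to 6 held 423, 598, 564, 437, 346 and 551 CPM. Only KO library 3 lay within the WT range, and the other 5 exceeded it. Elovl5 averaged 927 ± 260.3 CPM in KO and 487 ± 98.8 CPM in WT (SD, n = 6 per genotype), a 1.91-fold rise (95% confidence interval 1.42 to 2.55; log2 0.93 ± 0.20 SE; edgeR adjusted p = 0.0293). The exact permutation test gave p = 0.00866, unadjusted. The call was close to the threshold: it was lost on leaving out WT library 1, 2, 4 or 5 or KO library 2 or 6, with adjusted p between 0.0538 and 0.0766, while the log2 fold change stayed between 0.82 and 1.04 over all 12 such fits.

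Elovl2, which extends the longer polyunsaturated chains on the way to docosahexaenoic acid, did not pass the main test (ENSMUSG00000021364, chromosome 13, 41182381 to 41220405, minus strand). KO libraries 1 to 6 had 952, 807, 616, 900.03, 776 and 881 CPM and WT libraries 1 to 6 had 474, 612, 781, 463, 549 and 681 CPM. The groups overlapped through KO library 3 and WT library 3, and 4 of the 6 KO values exceeded the WT range. The means were 822 ± 119 CPM in KO and 593 ± 124 CPM in WT (SD, n = 6 per genotype), and the log2 fold change was 0.47 ± 0.14 SE (95% confidence interval 0.17 to 0.77; edgeR adjusted p = 0.0833). DESeq2 gave an adjusted p of 0.0238 on the same counts, in a fit that called 3.75% of genes higher in KO. The authors' deposited table lists Elovl2 with an adjusted p of 0.0128, and 2.6% of the genes with an adjusted p in the authors' deposited table are called higher in KO. None of the 9 is called lower there, against 2.98% of genes in the authors' deposited table. The authors' deposited table also lists Elovl3 (log2 fold change 2.18, adjusted p = 9.83e-06) and Elovl5 (0.94, adjusted p = 0.000422) under 0.05, and none of the other 6.

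Elovl1, which is expressed in most tissues and makes the very long saturated chains of sphingolipids, showed a small difference with little spread (ENSMUSG00000006390, chromosome 4, 118428093 to 118432953, plus strand). It ran from 36.7 to 41.1 CPM in KO (median 39.4) and from 27.9 to 39.8 CPM in WT (median 33.0). WT library 6, at 39.8 CPM, lay above all but 1 KO library. The log2 fold change was 0.23 ± 0.07 SE (95% confidence interval 0.07 to 0.39; edgeR adjusted p = 0.104), with an adjusted p of 0.0556 in DESeq2 and 0.0938 in limma-voom. Without WT library 6 the adjusted p was 0.0282, in a fit that called 700 genes against 396 with all libraries, and without any other single library it ran from 0.127 to 0.202.

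Elovl6, the elongase that turns palmitate into stearate, overlapped broadly between the genotypes (ENSMUSG00000041220, chromosome 3, 129532355 to 129638495, plus strand). Its lowest, median and highest values were 42.5, 65.1 and 121 CPM in KO and 27.7, 46.3 and 73.7 CPM in WT. KO library 5 alone held the 121 CPM, and the next KO value was 78.0. The log2 fold change was 0.55 ± 0.27 SE, with a 95% confidence interval of -0.03 to 1.13 (edgeR adjusted p = 0.263).

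Among the 4 desaturases 0 passed the test in edgeR, DESeq2 or limma-voom, and 0 had an unadjusted p under 0.05 in edgeR. Fads2, which catalyses the first step from the essential fatty acids to longer polyunsaturated ones, had the largest fold change of the 4 (ENSMUSG00000024665, chromosome 19, 10062765 to 10101746, minus strand). KO livers ran from 775 to 1407 CPM with a median of 1032, and WT livers from 556 to 1026 CPM with a median of 830.5. KO libraries 1, 2 and 4 lay above all WT libraries and the other 3 within their range (log2 fold change 0.38 ± 0.18 SE; edgeR adjusted p = 0.236). The 95% confidence interval was -0.0005 to 0.77, and the unadjusted edgeR p of 0.0503 was just over 0.05. Fads1, which acts after Fads2 to give arachidonic and eicosapentaenoic acid, ran from 507 to 904 CPM in KO (median 735) and from 429.96 to 783 CPM in WT (median 752) (ENSMUSG00000010663, chromosome 19, 10182888 to 10196877, plus strand). Its log2 fold change was 0.12 ± 0.17 SE, with a 95% confidence interval of -0.24 to 0.48 (edgeR adjusted p = 0.725).

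Scd1, the main stearoyl-CoA desaturase of liver, was the most abundant and the most variable of the 9 in KO livers (ENSMUSG00000037071, chromosome 19, 44394455 to 44407879, minus strand). KO libraries 1 to 6 gave 5918, 3311, 763, 5433, 1367 and 3047 CPM, and WT libraries 1 to 6 gave 1073, 4129, 2414, 2907, 4971 and 2708 CPM. The lowest and the highest value of all 12 libraries both came from KO livers, and the coefficient of variation was 62.9% in KO and 45.0% in WT. The means were 3306 ± 2080.2 CPM in KO and 3033 ± 1364 CPM in WT (SD, n = 6 per genotype), and the log2 fold change was 0.12 ± 0.48 SE (edgeR adjusted p = 0.913). The 95% confidence interval of the ratio of KO to WT was 0.524 to 2.27, so ratios within those bounds are not excluded by these data. Scd2, the desaturase best known from brain and skin, was low throughout, at 4.21 to 8.67 CPM in KO (median 6.37) and 3.60 to 7.75 CPM in WT (median 6.76) (ENSMUSG00000025203, chromosome 19, 44293674 to 44306864, plus strand). Its log2 fold change was 0.06 ± 0.22 SE (edgeR adjusted p = 0.914).

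**Figure D2:**
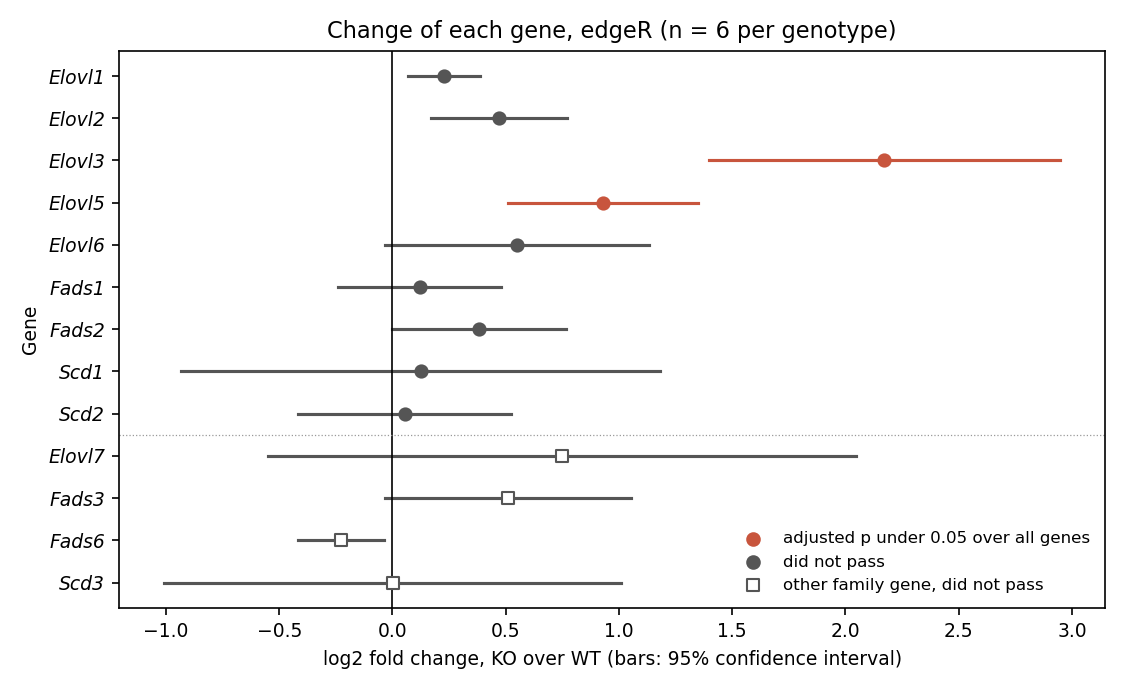
Log2 fold change of KO over WT for each gene (points) with its 95% confidence interval (bars), from the edgeR fit over all genes, n = 6 per genotype. Elovl3 at 2.17 and Elovl5 at 0.93 (red) passed the test, and the other 7 genes and 4 further genes of the same families (open squares) did not.

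Of 6 further genes of these families, Elovl7, Fads3, Fads6 and Scd3 had a row in the table, and 0 of the 4 passed the test in edgeR, DESeq2 or limma-voom (1, Fads6, had an unadjusted p under 0.05 in edgeR). Fads6 was the one with a negative value (log2 fold change -0.23 ± 0.09 SE; edgeR adjusted p = 0.162), at 163 ± 19.4 CPM in KO and 191 ± 16.3 CPM in WT (SD, n = 6 per genotype). Fads3, which lies beside Fads2, stood at 33.0 CPM in KO and 23.2 CPM in WT (log2 fold change 0.51 ± 0.25 SE; adjusted p = 0.264). Elovl7 was hardly expressed, and its log2 fold change of 0.75 ± 0.60 SE (adjusted p = 0.504) came with 4.09 CPM in KO library 2 and at most 1.33 CPM in any other library. Scd3 averaged 0.540 CPM in KO and 0.537 CPM in WT.

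Levels of different genes were set side by side as RPKM, the read count scaled to exon length and library size. In KO livers the order of the means was Scd1 (676), Fads2 (328), Elovl3 (263), Elovl5 (263), Elovl2 (207), Fads1 (154), Elovl1 (14.3), Elovl6 (10.9) and Scd2 (1.14). In WT livers it was Scd1 (620.1), Fads2 (252), Elovl2 (149.6), Fads1 (141), Elovl5 (138), Elovl3 (58.5), Elovl1 (12.2), Elovl6 (7.43) and Scd2 (1.10), so the highest mean was 562 times the lowest. Elovl3 thus ranked 3 in KO and 6 in WT livers. The ranges over libraries overlapped between neighbours from Scd1 down to Fads1 in KO livers and from Scd1 down to Elovl3 in WT livers. Those of Elovl1 and Elovl6 overlapped in both genotypes. Within single libraries part of the order held. Fads2 lay above Fads1 in every library, and Elovl3 lay below Elovl2, Fads1 and Elovl5 in every WT library. Other parts did not hold, such as Scd1 (156) below Fads2 (235) in KO library 3. Scd2 lay apart at the low end in both genotypes, at 0.771 to 1.59 RPKM in KO and 0.660 to 1.42 RPKM in WT.

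The summed level of the 5 elongases was 2379 ± 384 CPM in KO livers (range 1675 to 2769) and 1276 ± 250.2 CPM in WT livers (range 1026 to 1569; SD, n = 6 per genotype), a ratio of 1.86. Without Elovl3 the other 4 summed to 1858 CPM in KO and 1161 CPM in WT. The summed level of the 4 desaturases, most of it Scd1, was 5134 ± 2422 CPM in KO and 4549 ± 1601 CPM in WT, a ratio of 1.13. Of the summed elongase RPKM, Elovl3 made up 35.1% ± 6.14 in KO and 15.4% ± 7.42 in WT livers, while Elovl2 made up 27.3% in KO and 41.1% in WT and Elovl5 34.2% in KO and 38.0% in WT. The ratio of Elovl3 to Elovl1 per length was 14.0 to 24.2 in KO and 2.05 to 8.26 in WT, without overlap. The ratio of Elovl5 to Fads2 was 0.634 to 0.913 in KO (median 0.827) and 0.330 to 0.711 in WT (median 0.582), and that of Fads2 to Fads1 was 1.92 to 2.27 in KO and 1.42 to 1.97 in WT. In each of the last 2 ratios 5 of the 6 KO values exceeded the WT range. The ratio of Elovl5 to Elovl2 was 0.961 to 1.54 in KO and 0.710 to 1.10 in WT, with 4 KO values above the WT range. That of Scd1 to Scd2 was 202 to 1064 in KO and 332 to 791 in WT, with 1 KO value above. No share over other pairs of genes stands beside these ratios.

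**Figure D3:**
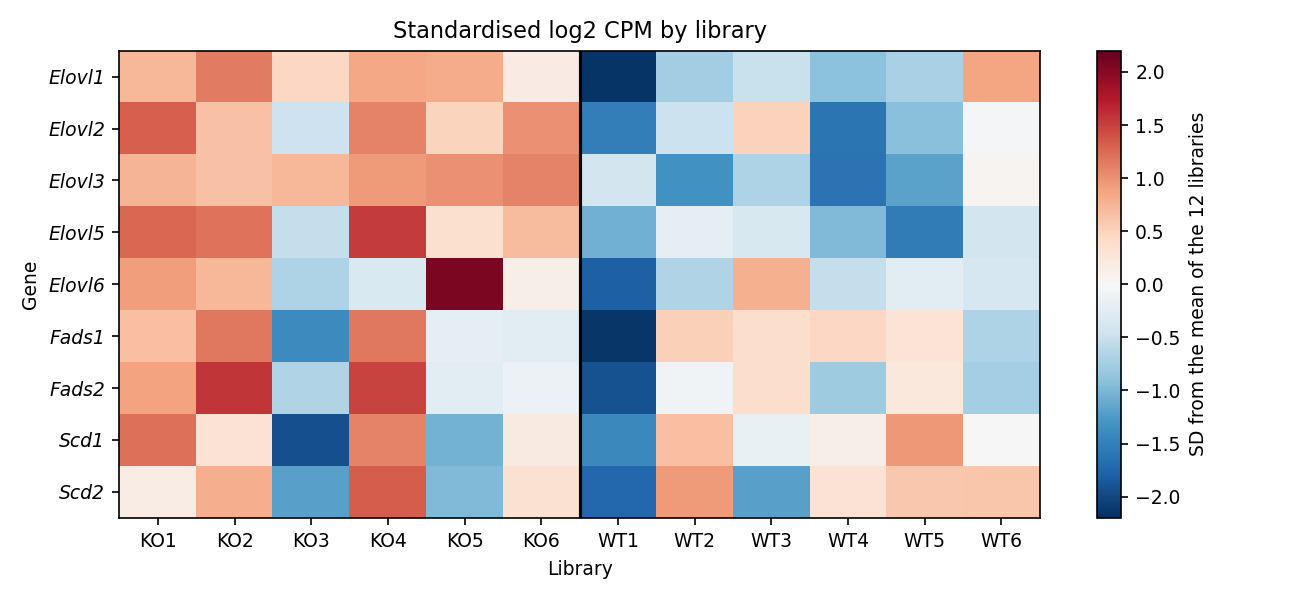
Log2 CPM of each of the 9 genes (rows), centred and scaled over the 12 libraries (columns, KO to the left of the line, WT to the right), in SD from the mean. KO library 3 and WT library 1 are low for most genes within their own groups, and Elovl3 is the row in which the genotypes separate fully.

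The 9 genes did not vary independently of the library. KO library 3 was the lowest KO library for 7 of the 9 genes, Elovl1 and Elovl3 being the exceptions with Elovl1 at 37.9 and Elovl3 at 453 CPM. WT library 1 was the lowest WT library for 6 of the 9 and lay below the mean of all 12 libraries for all 9. KO libraries 1 and 2 lay above that mean for all 9. Leaving out KO library 3 and WT library 1 together, a choice made after seeing the data, gave a log2 fold change of 2.29 ± 0.41 SE for Elovl3 (edgeR adjusted p = 0.0401) and 1.00 ± 0.17 SE for Elovl5 (adjusted p = 0.0361).

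Other measures of the same libraries moved with the genotype. In bulk RNA, fewer cells of a type and less RNA per cell cannot be told apart. Of 18 clock genes, Cry1, a repressor of the clock, rose (log2 0.96 ± 0.21 SE; edgeR adjusted p = 0.0360), and Hlf and Tef, output transcription factors of the clock, fell (log2 -0.80 ± 0.16 SE with adjusted p = 0.0266 for Hlf and -0.93 ± 0.20 SE with adjusted p = 0.0326 for Tef). In edgeR 13 of the 18 had an unadjusted p under 0.05, against 3184 of all 15000 genes. DESeq2 called 12 of the 18, Cry1, Hlf and Tef included, against 1214 of 15128 genes. With limma-voom 3 were called, Dbp, Hlf and Tef. Of the 18, 5 had a positive and 13 a negative log2 fold change (median -0.60, against 0.00 over all genes). A clock phase score was the mean standardised log2 CPM of 5 genes of one phase less that of 6 of the opposite phase. It averaged 1.34 in KO and -1.34 in WT livers (exact permutation test, p = 0.00433, unadjusted). The lists behind this score and the scores and sums below were chosen with earlier results of these data known. Their permutation p-values are a description and not an independent test. The genotypes crossed on this score in 1 pair, KO library 3 with a score of -0.46 and 453 CPM of Elovl3 and WT library 6 with a score of 0.43 and 238 CPM of Elovl3. WT library 6 also had the highest Elovl3 value of the WT group.

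With the clock phase score as a covariate the log2 fold change of Elovl3 was 1.54 ± 0.44 SE (edgeR adjusted p = 0.643) and that of Elovl5 was 0.67 ± 0.34 SE (adjusted p = 0.785). In that fit 0 of 15000 genes passed the threshold in edgeR, and 955 had an unadjusted p under 0.05, against 3184 without the covariate. Over all 24 alternatives the adjusted p ran from 4.51e-06 to 0.643 for Elovl3 and from 0.000244 to 0.785 for Elovl5. The score is nearly separated by genotype in these 12 libraries, and the part of the clock in the Elovl3 and Elovl5 values cannot be told apart from that of the genotype.

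All 12 macrophage markers had a negative log2 fold change (median -0.73), and Cd5l, Adgre1 and Vsig4, genes of resident liver macrophages, fell (log2 -1.10 ± 0.19, -0.87 ± 0.18 and -0.79 ± 0.18 SE, with edgeR adjusted p of 0.0194, 0.0266 and 0.0368). In edgeR 11 of the 12 had an unadjusted p under 0.05, against 3184 of all 15000 genes. DESeq2 called 11, against 1214 of 15128 genes, and limma-voom 3. The summed level of the 12 markers was 287 ± 73.4 CPM in KO (range 226 to 433) and 482 ± 82.1 CPM in WT (range 379.9 to 587; SD, n = 6 per genotype; exact permutation test, p = 0.00649, unadjusted). This p is a description, since the list was chosen with earlier results of these data known. With the macrophage score as a covariate the log2 value was 1.62 ± 0.45 SE for Elovl3 (edgeR adjusted p = 0.356) and 1.12 ± 0.30 SE for Elovl5 (adjusted p = 0.340). In that fit 0 of 15000 genes passed the threshold in edgeR and 1499 had an unadjusted p under 0.05. KO library 4, whose macrophage sum of 433 CPM lay within the WT range, held 549.6 CPM of Elovl3 and 1232 CPM of Elovl5. The macrophage sum is nearly separated by genotype in these 12 libraries. The part of macrophages in the Elovl3 and Elovl5 values cannot be told apart from that of the genotype.

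Elovl3 is also strongly expressed in brown fat, so markers of adipocytes were read beside it. Of 8 brown adipocyte markers, Cidea, Cox7a1 and Prdm16 had a row, and Ucp1, Cox8b, Dio2, Zic1 and Otop1 had none. Their sum was 34.4, 7.03, 12.7, 40.1, 1.97 and 3.69 CPM in KO libraries 1 to 6 and 1.53 to 3.66 CPM in the WT libraries. The means were 16.6 ± 16.5 CPM in KO and 2.78 ± 0.767 CPM in WT (SD, n = 6 per genotype; exact permutation test, p = 0.0281, unadjusted). Here too the p is a description, as the list was chosen with earlier results of these data known. Of the 3 genes 2 had a positive and 1 a negative log2 fold change (median 0.23), and most of the KO mean was Cidea. Cidea, a lipid droplet gene, averaged 14.8 CPM in KO and 1.03 CPM in WT (log2 fold change 3.86 ± 1.06 SE; edgeR adjusted p = 0.0750), and DESeq2 called it alone of the 3, while limma-voom called none. Elovl3 was 462 and 549.6 CPM in KO libraries 1 and 4, with the highest sums, and 595 and 644 CPM in KO libraries 5 and 6, with the lowest. The part of adipocyte RNA in the Elovl3 value was not tested. White adipocyte markers, 4 of 8 with a row and Adipoq, Plin1, Lep and Retn without one, summed to 44.5 CPM in KO (24.7 to 72.4) and 42.5 CPM in WT (35.0 to 48.0).

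Since Elovl3 is higher in male liver, genes with a known sex bias were read as well. Of 12 male-biased genes 11 had a positive log2 fold change (median 0.59). Of 13 female-biased genes listed only 5 had a row and 4 were tested, and these 4 had a negative log2 fold change (median -1.55). Of the 16 genes tested 0 passed in edgeR or limma-voom. In edgeR 4 of the 16 had an unadjusted p under 0.05, against 3184 of all 15000 genes. DESeq2 called 2, Mup20 and Cyp2b9, against 1214 of 15128 genes. The lowest adjusted p among the male-biased genes was 0.0957, for Mup20, a pheromone-carrier gene (log2 fold change 1.17 ± 0.36 SE), followed by the cytochrome P450 genes Cyp4a12a (0.68 ± 0.28 SE; adjusted p = 0.190) and Cyp4a12b (0.85 ± 0.43 SE; 0.275). Among the female-biased ones it was 0.101, for Cyp2b9 (-3.85 ± 1.18 SE), followed by Cyp2b13 (-2.38 ± 1.01 SE; adjusted p = 0.2004) and Cyp17a1 (-0.71 ± 0.63 SE; 0.555), also cytochrome P450 genes. A score of male-biased less female-biased genes averaged 0.745 ± 0.890 in KO and -0.745 ± 1.99 in WT (SD, n = 6 per genotype; exact permutation test, p = 0.147). WT libraries 2 and 4 had the lowest scores (-3.15 and -2.69), with 62.5 and 48.0 CPM of Elovl3. WT library 3 had the highest score (2.01), with 117 CPM of Elovl3. With this score as a covariate the log2 value was 1.84 ± 0.29 SE for Elovl3 (edgeR adjusted p = 0.0326) and 0.94 ± 0.23 SE for Elovl5 (adjusted p = 0.0889).

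**Figure D4:**
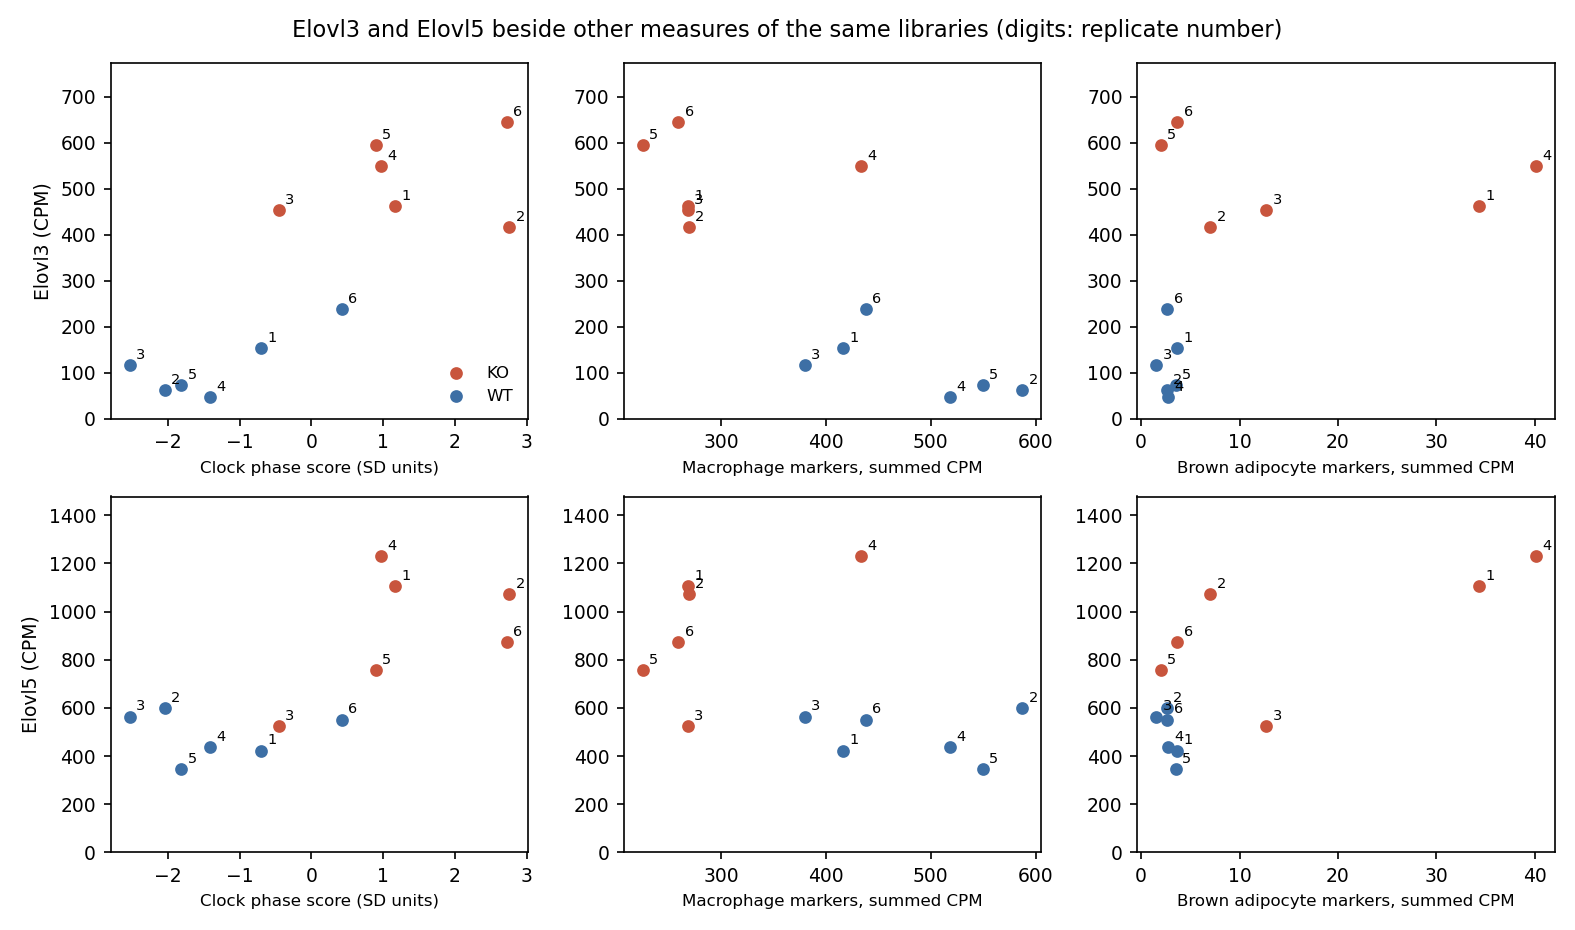
Elovl3 (upper row) and Elovl5 (lower row) in CPM against the clock phase score in SD units, the summed CPM of 12 macrophage markers and the summed CPM of the 3 brown adipocyte markers with a row, with 1 point per library (KO red, WT blue) and its replicate number beside it. The KO and WT points separate along the clock score but for KO library 3 and WT library 6 and along the macrophage sum but for KO library 4, and the brown adipocyte sums run from 1.97 to 40.1 CPM in KO and from 1.53 to 3.66 CPM in WT. Most of the KO mean of the brown adipocyte sum is Cidea.

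The remaining enzymes of the elongation cycle showed 1 gene that passed in edgeR. Of 7 listed genes 6 were tested, 4 with a positive and 2 with a negative log2 fold change (median 0.08). An unadjusted p under 0.05 in edgeR was found for 3 of the 6. DESeq2 called 2, Hacd2 and Hacd3, against 1214 of 15128 genes, and limma-voom called 1, Hacd2. Hacd2, a dehydratase that acts on the hydroxyacyl intermediate, rose to 53.3 ± 3.38 CPM in KO livers, against 43.2 ± 4.12 CPM in WT livers (SD, n = 6 per genotype; log2 0.30 ± 0.07 SE; edgeR adjusted p = 0.0401), and 5 of the 6 KO values exceeded the WT range. Hacd3, another dehydratase, had a log2 fold change of -0.21 ± 0.06 SE (adjusted p = 0.0940), and Hsd17b12, the ketoacyl reductase of the cycle, of 0.29 ± 0.10 SE (adjusted p = 0.110). For Hacd3, 5 of the 6 KO values lay below the WT range. The authors' deposited table gives an adjusted p of 0.0337 for Hacd3, with a negative fold change, and of 0.133 for Hacd2. Of the 5 tested genes of the cytochrome b5 system, which hands electrons to the desaturases, 0 passed in edgeR, DESeq2 or limma-voom. In edgeR 1 of the 5 had an unadjusted p under 0.05, against 3184 of all 15000 genes. Of their log2 fold changes 3 were positive and 2 negative (median 0.05). Cyb5r4, a reductase gene of this system, had the lowest p (log2 fold change -0.20 ± 0.07 SE; edgeR adjusted p = 0.138). Of the cytochrome genes, Cyb5b had a log2 value of 0.13 ± 0.08 SE (adjusted p = 0.341) and Cyb5a of -0.22 ± 0.15 SE (adjusted p = 0.413).

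Supply of malonyl-CoA and NADPH, which both elongation and fatty acid synthesis consume, was read from 10 genes. All 10 had a positive log2 fold change (median 0.24), and 1 passed in edgeR, where 2 had an unadjusted p under 0.05. DESeq2 called 2, Me1 and Pgd, against 1214 of 15128 genes, and limma-voom called 1, Me1. For Me1, the malic enzyme that makes NADPH in the cytosol, KO libraries 1 to 6 held 232, 155, 131, 259, 129.8 and 176 CPM, against 93.0, 129, 100.3, 115, 98.2 and 77.6 CPM for WT libraries 1 to 6. Me1 rose and the groups did not overlap (log2 0.82 ± 0.18 SE; edgeR adjusted p = 0.0355). Pgd, of the pentose phosphate pathway, had a log2 fold change of 0.40 ± 0.12 SE (adjusted p = 0.0918), and Slc25a1, which exports citrate for acetyl-CoA, of 0.21 ± 0.11 SE (adjusted p = 0.311).

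Of 12 regulators of lipid synthesis Insig2 rose and none fell in edgeR or limma-voom, while DESeq2 also called Insig1 and Mlx higher and Ppara, the receptor gene for fatty acid oxidation, lower (edgeR log2 fold change -1.04 ± 0.35 SE, adjusted p = 0.121). There were 5 positive and 7 negative log2 fold changes (median -0.04). Insig2, which holds the SREBP escort protein in the endoplasmic reticulum, had values of 378, 519, 345, 433, 259 and 499.8 CPM for KO libraries 1 to 6, against 246, 178, 144, 173, 159 and 261 CPM for WT libraries 1 to 6. KO library 5 alone lay within the WT range (log2 1.07 ± 0.19 SE; edgeR adjusted p = 0.0179). Mlx, the partner of the carbohydrate-response factor ChREBP, had a log2 fold change of 0.36 ± 0.10 SE (adjusted p = 0.0780), and Insig1, the paralog of Insig2 that SREBP induces, of 0.66 ± 0.21 SE (adjusted p = 0.107).

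**Figure D5:**
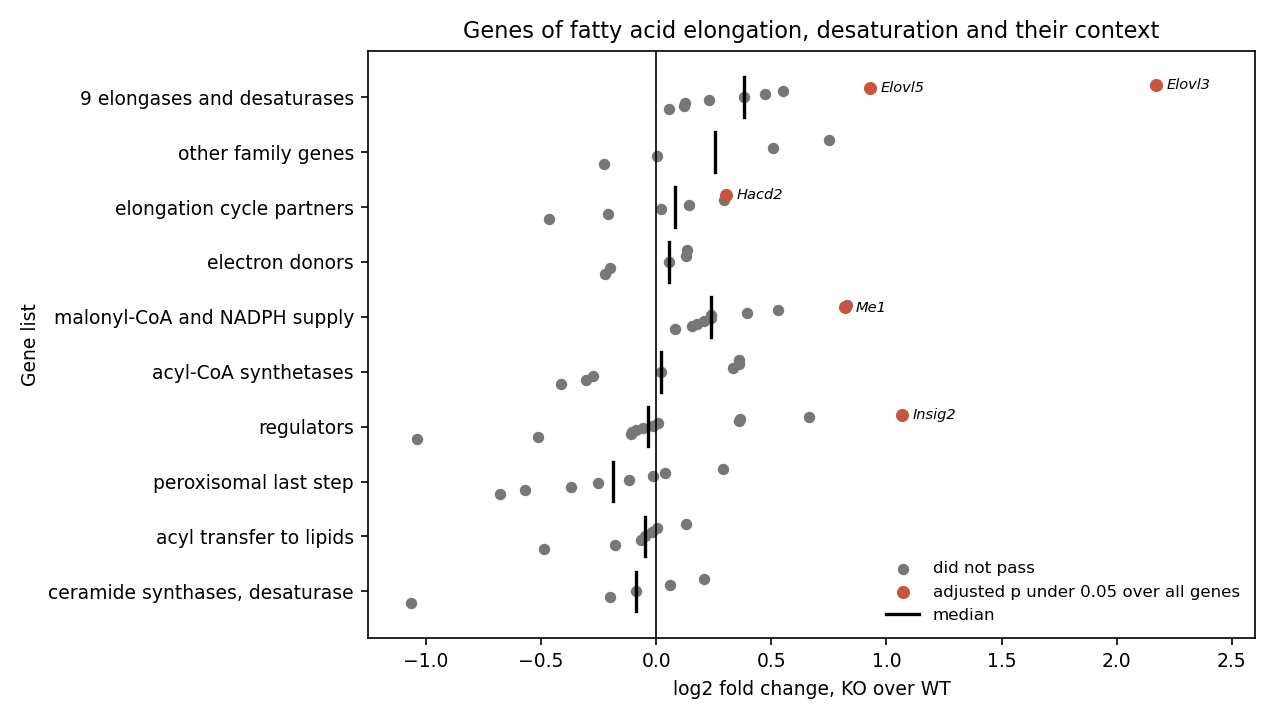
Log2 fold change of KO over WT (points) for the 9 genes and for 9 lists of related genes (rows), with the median of each list as a vertical bar. Elovl3, Elovl5, Hacd2, Me1 and Insig2 (red) passed the test over all genes, and all genes of malonyl-CoA and NADPH supply lie to the right of 0.

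Promoters from the RefSeq table (GRCm38.p6) matched 5 of the 9 genes, in 7 entries for Elovl1, Elovl2, Elovl5, Elovl6 and Fads2. Elovl3, Fads1, Scd1 and Scd2 had no entry. The 250 bases before the start of Elovl5 are shown, as it is the gene among these 5 that passed the test. Capitals mark the motifs found, an E-box CACGTG and the NF-Y box CCAAT on the reverse strand as ATTGG.
Elovl5 promoter, chr9:77917115-77917364, plus strand: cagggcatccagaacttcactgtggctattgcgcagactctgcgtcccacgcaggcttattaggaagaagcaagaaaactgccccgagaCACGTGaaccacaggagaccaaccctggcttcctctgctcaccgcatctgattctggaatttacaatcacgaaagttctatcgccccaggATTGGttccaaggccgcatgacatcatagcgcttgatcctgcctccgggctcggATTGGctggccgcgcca

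These and 3 other motifs were searched on both strands in these windows and in those of all 32851 promoters of the table. The E-box CACGTG was in 1 of the 7 entries, that of Elovl5, and in 6.02% of all promoters. CCAAT was in 2 of the 7 (Elovl1 and Elovl5) and in 33.8% of all, and the nuclear receptor motif AGGTCA was in 2 of the 7 (Elovl1 and Elovl6) and in 14.0% of all. The SREBP site TCACNCCAC (1.05% of all promoters) and the STAT5-type palindrome TTCNNNGAA (7.02%) were in 0 of the 7. No 2 of these motifs overlap in the Elovl5 window. A match describes letters in a window and is not a binding site, and absence from the window says nothing of the factor.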

How the data were processed

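PolyA-selected RNA of 12 liver samples from male mice was sequenced, per the labels' protocols. The deposited table holds raw read counts per gene and library, per the file headers, beside columns of a comparison that the authors made: a mean normalised count per gene (signal, not used), a log2 fold change, a test score and p-values as deposited. FastQC, Trimmomatic, HISAT2, SAMtools, featureCounts, DESeq2 and GRCm38 come from the list of tools and builds in the labels, per the submitters' processing notes. The sources used here give no versions, annotation release, strand setting or treatment of multi-mapping. Of 15344 rows, 204 repeats of a gene, equal in all 12 columns, were dropped. Within a group all 30 pairs of libraries differed beyond counting error (chi-square over its degrees of freedom, 38.1 to 242).

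Counts were tested with edgeR 4.0.16 (R 4.3.3; TMM, filterByExpr, robust quasi-likelihood F test, Benjamini-Hochberg, threshold 0.05). The SE is the absolute log2 fold change over the square root of F. The scripts were tested on simulated data. CPM uses TMM-scaled library sizes, the permutation test log2 CPM with a prior count of 1, and RPKM the union exon length of GENCODE M21. Alternatives were DESeq2 1.42.0, limma-voom 3.58.1, other scalings and filters, a replicate block, 1 surrogate variable (sva 3.50.0), 3 score covariates and each library left out. The genes and lists were chosen with earlier results of these data known. Named are all 9 genes, their measured relatives, from each list the called genes or otherwise the 3 of smallest p, called markers, and the 3 nearest profiles of each called gene. Beyond that rule Phb, Pitx3, other neighbouring genes and, in lists with a called gene, the next 2 by p were named after their values were seen. A comparison of protein sequences was not run, and 1 gene that the rule names is not reported here.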

Additional observations from a re-analysis of the deposited data

How the results depend on the processing

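Elovl3 was called in all 12 fits that left out 1 library (log2 fold change 2.01 to 2.52) and under every other alternative but the clock phase and macrophage covariates. Of 24 alternatives Elovl5 lost its call under 10, all with a positive fold change. The number of genes called was 396 in the main test, 1214 with DESeq2, 257 with total counts only, 50 with the sex-bias covariate, 0 with the clock phase or the macrophage covariate, 187 without KO library 3 and WT library 1, and 25 to 700 with 1 library left out. The lowest of these were 25 without WT library 4, 46 without WT library 2, 86 without KO library 6 and 89 without WT library 5, then 235 without KO library 2, and the highest was 700 without WT library 6. Of the 9 genes 2 were called in the main test, 1 with the sex-bias covariate, 0 with the clock phase or the macrophage covariate, and 1 to 3 with 1 library left out. Elovl2 joined with DESeq2 (adjusted p = 0.0238) and without WT library 3 (0.0460). The log2 fold change of Elovl6 was -0.12 with the macrophage covariate. That of Scd1 was -0.052 with limma-voom and -0.12 to 0.32 with 1 library left out. That of Scd2 was -0.28 with the clock phase covariate and -0.069 to 0.14 with 1 library left out. The cause of these changes was not tested. With limma-voom 8 of the 9 log2 fold changes were positive, and with RLE factors or total counts 9. Prior counts of 0.25 and 4, and list medians under other scalings, changed no direction. Elovl7, Scd2 and Scd3 had few reads, and depth limits what can be said of them.

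The labels do not say whether same-numbered KO and WT libraries are paired, and the values did not settle it. The correlation of their deviations ran from -0.20 to 0.36, with 3 of 6 over 0.1. Of the 6 KO libraries 3 correlated best with the WT library of their own number. With the replicate number as a block 374 genes were called. The block left 1 of the 9 called, Elovl3 (log2 2.37). Under the block Elovl5 had a log2 fold change of 0.91 (adjusted p = 0.0529) and Scd1 of -0.086.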

Other observations

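Genes that use or activate the products of elongation and desaturation held no call in edgeR or limma-voom. In edgeR an unadjusted p under 0.05 was found for 3 of 8 peroxisomal genes, 5 of 7 acyl-CoA synthetases, 1 of 7 acyltransferases and 2 of 5 ceramide genes. Over all genes it was found for 3184 of 15000. DESeq2 called 3 peroxisomal genes, 1 synthetase (Acsl4), 0 acyltransferases and 1 ceramide gene (Cers6), against 1214 of 15128 genes. Of 8 genes of the peroxisomal last step of docosahexaenoic acid synthesis 6 had a negative log2 fold change (median -0.19). Scp2, a peroxisomal thiolase and lipid carrier whose gene overlaps Podn, had a log2 value of 0.29 ± 0.09 SE (edgeR adjusted p = 0.0882), and Acaa1a, another thiolase, of -0.37 ± 0.12 SE (adjusted p = 0.107). Of 7 acyl-CoA synthetases 4 were positive and 3 negative (median 0.02). Among them Acsl4, which prefers arachidonic acid, had a log2 value of 0.36 ± 0.11 SE (edgeR adjusted p = 0.0969), Acsl5, which overlaps Zdhhc6, 0.33 ± 0.12 SE (adjusted p = 0.130) and Slc27a2, a very long chain synthetase, -0.31 ± 0.13 SE (adjusted p = 0.188). Of 7 acyltransferases for polyunsaturated chains 2 were positive and 5 negative (median -0.05), Lclat1 having -0.18 ± 0.06 SE (adjusted p = 0.119), Lpcat2 -0.49 ± 0.25 SE (0.282) and Agpat3 -0.05 ± 0.07 SE (0.739). Of 5 ceramide synthases and desaturases 2 were positive and 3 negative (median -0.09). Degs1 had 0.21 ± 0.07 SE (edgeR adjusted p = 0.125), and Cers6, which makes ceramide with palmitate, stood at 8.73 CPM in KO and 18.3 CPM in WT (-1.06 ± 0.40 SE; adjusted p = 0.164). Cers4, another ceramide synthase gene, had -0.20 ± 0.13 SE (adjusted p = 0.411).

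Profiles over the 12 libraries, after taking off each group's mean, were compared among 12881 genes. Genes overlapping the one compared, and symbols that begin with Gm or ENSMUSG or hold Rik, were passed over. Of the rest, those nearest to Elovl3 were Vdac3, Nfatc2ip and Psmc4, at a root mean square distance of 0.405, 0.448 and 0.449 SD. The other 8 elongases and desaturases were 1.13 to 1.73 SD away from Elovl3. The nearest to Elovl5 by the same rule were Pde3a, Acsl5 and Slc7a7, at 0.517, 0.549 and 0.569 SD. Of the other 8 elongases and desaturases, Elovl2 and Scd1 came nearest to Elovl5, at 0.709 and 0.829 SD. None of these 6 nearest genes was called. Near Elovl5, the predicted gene Gm34654, chosen after its values were seen, stood at 3.31 CPM in KO and 0.488 CPM in WT (log2 2.76 ± 0.51 SE; edgeR adjusted p = 0.0208).

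Summed markers of the other cell types were, in CPM, 354 in KO and 429 in WT for stellate cells, 239 in KO and 266 in WT for sinusoidal endothelium, 74.7 in KO and 64.5 in WT for cholangiocytes, 4.75 in KO and 5.03 in WT for T and NK cells, and 3.77 in KO and 5.14 in WT for B and plasma cells. Lck, a T cell kinase gene, fell to 0.318 CPM in KO, against 0.785 CPM in WT (log2 -1.31 ± 0.30 SE; edgeR adjusted p = 0.0394). At these levels Lck had few reads, and depth limits what can be said of it.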
